A study of Mus musculus with 8 samples.

Results

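The 37 genes described here are a list of macrophage, monocyte and general leukocyte genes, taken by symbol from the 24848 gene rows of each library; all 37 had a row. The list was drawn up by name, with earlier results of these data known. It holds 6 lineage genes, 8 leukocyte surface and signalling genes, the 3 subunits of complement C1q and 5 Fc receptors and adaptors. It also holds 2 pattern receptors, 5 markers of resident macrophages, 2 monocyte receptors grouped as recruited, 4 lipid-handling markers and 2 lysosomal proteases. RNA was sequenced from the tibialis anterior, a muscle of the lower leg, of male Leprdb/db mice, which lack the signalling form of the leptin receptor and are obese and diabetic. In both groups the leg had undergone surgery that cuts its blood supply, and the muscle was taken 28 days later. The praliciguat group (n = 4 libraries) was fed chow with 75 ppm praliciguat, set to match the plasma level of 10 mg/kg per day, and the placebo group (n = 4 libraries) was fed control chow; both diets ran for 31 days from 3 days before surgery. Praliciguat is a stimulator of soluble guanylate cyclase, an enzyme that nitric oxide switches on to make cyclic GMP. All mice carried the Leprdb/db genotype and all muscles were ischemic, so neither lean mice nor uninjured muscle enter any comparison. The labels do not say whether each library is a separate mouse, so any p-value reflects variation among these libraries, which may be technical.

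Macrophages clear dead fibres after ischemic muscle injury and then remain, at low numbers, in the tissue between the fibres. Monocytes enter from blood through the chemokine receptor Ccr2, and macrophages depend on the growth factor receptor Csf1r. They sense debris and antibody through C1q, Fc receptors and receptors paired with the adaptor Tyrobp. Macrophages that have taken up much lipid or debris carry Trem2, Gpnmb and Spp1, while the scavenger receptors Mrc1 and Cd163 and the folate receptor Folr2 mark resident cells. In whole muscle, fewer cells of a type and less RNA per cell cannot be told apart.

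A single library stood apart and is given first, since the group differences below depend on it. Levels are in TPM, transcript abundance scaled to transcript length and to the whole library, so they can be compared between genes. Summed over the 37 genes, praliciguat replicates 1 to 4 held 387, 262, 2673 and 588 TPM, against 518, 338, 917 and 391 TPM in placebo replicates 1 to 4. Praliciguat replicate 3 was thus 6.84 times the median of the other 7 libraries and 2.91 times the next highest library, placebo replicate 3. The sum was 0.0262% to 0.267% of all TPM, so the genes are a small part of the RNA in this muscle. The total of praliciguat replicate 3, 31896205 expected counts, was the highest, against 21099764 to 29635817 in the other 7 libraries. The tissue label was borne out by muscle fibre markers, which summed to 127300 to 149200 TPM in praliciguat libraries and 133600 to 142000 TPM in placebo libraries. Where a fold change is given without praliciguat replicate 3, it comes from a fit of the other 7 libraries.

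**Figure D1:**
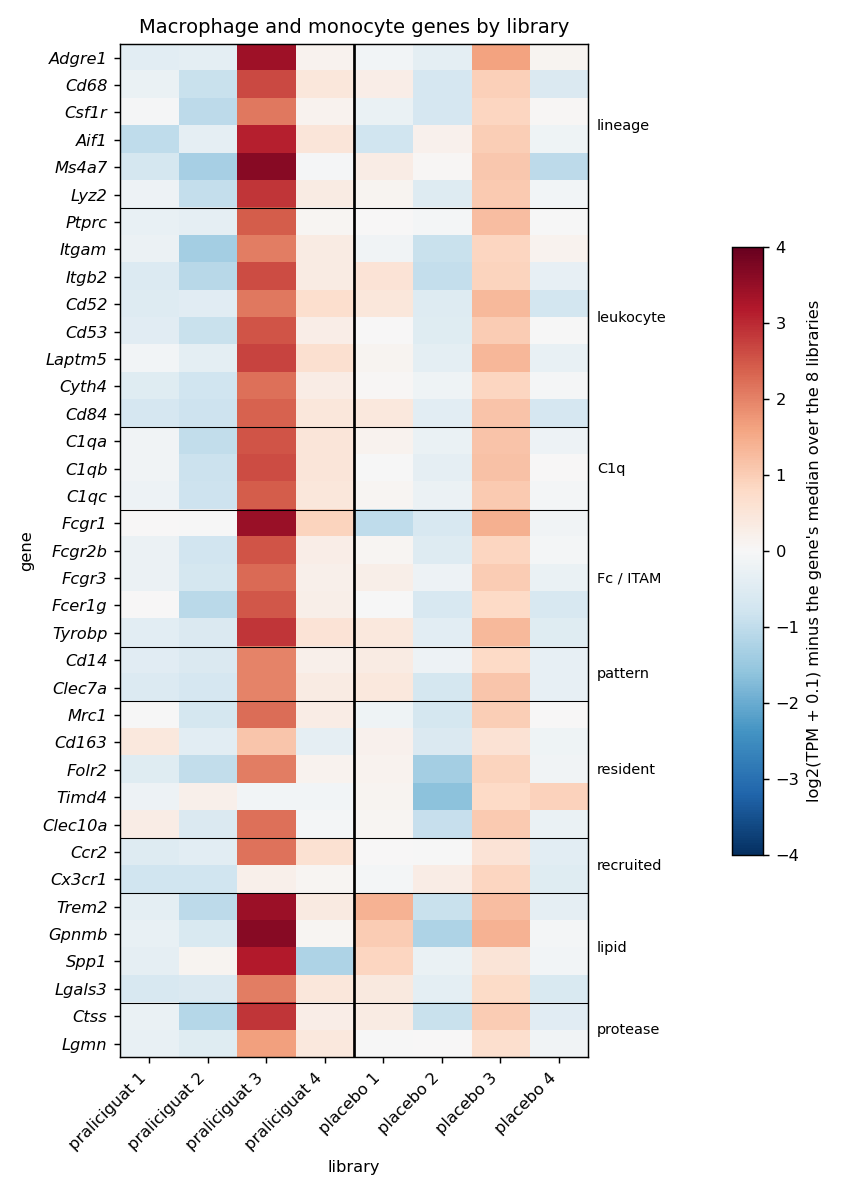
Level of each of the 37 genes (rows, grouped by role) in each library (columns, praliciguat left, placebo right), as log2(TPM + 0.1) minus the gene's median over the 8 libraries. The column of praliciguat replicate 3 is the darkest red in 35 of 37 rows, and Timd4 and Cx3cr1 are the exceptions.

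Promoter sequences are shown as a description of the members. RefSeq promoters (GRCm38.p6, 250 bases before to 50 after each start) were matched by symbol for 29 of the 37 genes. The other 8 are Adgre1, Csf1r, Itgb2, Cd52, C1qa, Tyrobp, Cd14 and Clec10a. The core bound by PU.1, the transcription factor on which macrophages depend, was searched on both strands as GAGGAAGT. It lay in the promoters of 5 of the 29 genes (17.2%), Cd53, Cyth4, C1qc, Spp1 and Ctss, against 3.69% of 27025 genes with a promoter in the table. The shorter core GAGGAA, which every longer match also holds, lay in 18 of 29 (62.1%) against 31.3% of all genes. The AP-1 site TGACTCA lay in 4 of 29 (Cd68, Cd84, Folr2 and Gpnmb; 13.8%) against 5.95% of all genes. These are matches of letters in a window and not binding sites. The genes were chosen by name as macrophage and leukocyte genes, and a link between these matches and the levels was not tested. Here 3 promoters with the longer core, in capitals in either orientation, are printed from a lysosomal protease (Ctss, chr3:95526536-95526835, plus strand), a leukocyte tetraspanin (Cd53, chr3:106790100-106790399, minus strand) and a secreted matrix protein (Spp1, chr5:104434861-104435160, plus strand).
Ctss: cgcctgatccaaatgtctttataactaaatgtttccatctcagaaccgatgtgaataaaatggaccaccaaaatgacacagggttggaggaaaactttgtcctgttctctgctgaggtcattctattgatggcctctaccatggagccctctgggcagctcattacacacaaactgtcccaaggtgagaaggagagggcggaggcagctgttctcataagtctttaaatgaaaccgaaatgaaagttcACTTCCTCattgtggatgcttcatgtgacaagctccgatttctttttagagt
Cd53: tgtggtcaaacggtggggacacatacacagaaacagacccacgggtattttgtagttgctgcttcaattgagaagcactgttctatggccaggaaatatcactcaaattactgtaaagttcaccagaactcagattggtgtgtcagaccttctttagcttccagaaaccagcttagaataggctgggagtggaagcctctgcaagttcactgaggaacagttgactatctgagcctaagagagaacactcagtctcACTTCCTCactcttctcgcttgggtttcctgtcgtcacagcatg
Spp1: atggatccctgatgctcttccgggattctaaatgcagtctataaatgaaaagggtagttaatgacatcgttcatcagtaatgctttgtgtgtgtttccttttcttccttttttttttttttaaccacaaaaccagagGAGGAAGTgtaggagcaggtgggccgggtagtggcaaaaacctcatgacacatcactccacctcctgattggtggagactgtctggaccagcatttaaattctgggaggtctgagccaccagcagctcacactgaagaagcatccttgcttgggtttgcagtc
In Ctss the core begins 2 bases before the annotated start, and in Spp1 it begins 113 bases before it. In Cd53 it lies after the start, from base 7 of the transcript.

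Near copies of these genes are shown because reads from a shared stretch could come from either copy. The activating Fc receptor Fcgr3 and the inhibitory Fc receptor Fcgr2b share coding sequence. Of all 50-base words in the Fcgr2b coding sequence 17.1% occur in Fcgr3, of those of Fcgr3 22.1% occur in Fcgr2b, and the longest identical run is 129 bases. The window below begins 20 bases before that run and covers 100 bases of each (GENCODE M21 on GRCm38; chr1:170968002-170968101 for Fcgr2b and chr1:171057713-171057812 for Fcgr3, both minus strand). The 1 base that differs is in capitals.
Fcgr2b: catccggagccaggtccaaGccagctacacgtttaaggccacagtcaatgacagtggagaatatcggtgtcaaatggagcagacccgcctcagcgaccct
Fcgr3: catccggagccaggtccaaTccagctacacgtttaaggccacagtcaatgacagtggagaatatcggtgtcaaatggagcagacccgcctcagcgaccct
Lyz2, the lysozyme of macrophages, has a neighbour, Lyz1, with 20.3% of its 50-base coding words in common and an identical run of 118 bases. Their windows are spliced coding sequence (within chr10:117278668-117280686 for Lyz2 and chr10:117289144-117291074 for Lyz1, both minus strand), with the 3 differing bases in capitals.
Lyz2: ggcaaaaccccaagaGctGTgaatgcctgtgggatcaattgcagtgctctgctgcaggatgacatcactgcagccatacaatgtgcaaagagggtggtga
Lyz1: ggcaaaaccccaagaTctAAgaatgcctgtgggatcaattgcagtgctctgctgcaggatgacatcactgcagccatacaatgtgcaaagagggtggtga
The expected counts of all 37 genes and of Lyz1 were whole numbers in all 8 libraries (tolerance 0.001). No fractional division of reads between these copies was therefore seen. Lyz1 took 2.36% to 8.17% of the TPM of the pair.

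The lineage genes had the highest summed level of the 9 groups in every library. Adgre1, which encodes the macrophage surface antigen F4/80, had 1.31, 1.34, 19.9 and 1.97 TPM in praliciguat libraries, against 1.64, 1.34, 5.63 and 1.94 TPM in placebo libraries. Lyz2 had 91.1, 53.4, 750 and 130 TPM in praliciguat libraries, against 112, 72.7, 215 and 96.8 TPM in placebo libraries, and was the highest member in every library. Csf1r had 7.82, 3.82, 34.9 and 8.86 TPM in praliciguat libraries, against 6.73, 4.97, 14.8 and 8.30 TPM in placebo libraries. In each case replicate 3 of either group was its group's highest, and the groups overlapped. The endosomal protein gene Cd68 reached 69.8 TPM in praliciguat replicate 3 and lay between 5.98 and 15.2 TPM in the other 3 praliciguat libraries, against 6.97 to 21.5 TPM in placebo libraries. Ms4a7, a membrane protein of macrophages, had 0.75, 0.45, 17.1 and 1.25 TPM in praliciguat libraries, against 1.59, 1.32, 2.84 and 0.57 TPM in placebo libraries. Its level in praliciguat replicate 3 was 13.7 times the median of the other 7, against 4.46 times for Csf1r, so genes of the lineage did not all stand out to the same degree. Aif1, which encodes an actin-binding protein of macrophages, stood at 11.05 times. The edgeR log2 fold changes, praliciguat over placebo, ran from 0.68 ± 0.61 (SE) for Csf1r to 1.61 ± 1.09 for Ms4a7. Without praliciguat replicate 3 they ran from -0.87 ± 0.54 for Ms4a7 to -0.20 ± 0.44 for Cd68.

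The 3 C1q subunits, which assemble into the first component of the classical complement pathway and are made mostly by macrophages, kept nearly fixed proportions. They lie next to each other on chromosome 4 (GRCm38), C1qb at 136880126 to 136886200, C1qc at 136889801 to 136892936 and C1qa at 136895916 to 136898844. C1qa had 30.5, 16.8, 193 and 47.5 TPM in praliciguat libraries, against 37.1, 27.7, 74.9 and 29.1 TPM in placebo libraries. C1qb over C1qa was 0.843 to 1.09 and C1qc over C1qa was 0.859 to 1.04 over all 8 libraries, while the C1qa level itself spanned 16.8 to 193 TPM. Summed, the 3 genes averaged 206 ± 234 TPM in praliciguat libraries (90.7 ± 41.9 TPM without replicate 3, n = 3) and 120 ± 60.8 TPM in placebo libraries (SD, n = 4 each). The log2 fold changes were 0.73 to 0.85 with all libraries and -0.34 to -0.32 without praliciguat replicate 3.

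Fc receptors bind the constant part of antibodies, and Fcer1g and Tyrobp are the adaptors that carry their signal and that of Trem2 into the cell. Tyrobp (chromosome 7, 30413782 to 30417582) had 10.1, 9.13, 100.2 and 20.2 TPM in praliciguat libraries, against 18.4, 10.3, 33.9 and 9.89 TPM in placebo libraries. Fcer1g had 18.5, 8.59, 104 and 21.6 TPM in praliciguat libraries, against 18.2, 11.7, 32.1 and 11.6 TPM in placebo libraries. Both adaptors were above every receptor of the group in all 8 libraries and were highest in replicate 3 of each group. Fcgr2b over Fcgr3, the balance of the inhibitory to the activating receptor, was 0.658, 0.624, 0.773 and 0.690 in praliciguat libraries, against 0.592, 0.531, 0.600 and 0.750 in placebo libraries (0.686 ± 0.0638 and 0.618 ± 0.093, SD, n = 4 each). These ratios overlapped, and both genes carry the shared stretch shown above. Fcgr1, the high-affinity receptor, was not tested because it reached the count minimum in too few libraries, with 6, 6, 125 and 15 expected counts in praliciguat libraries, against 1, 3, 23 and 5 in placebo libraries.

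The leukocyte surface and signalling genes are not limited to macrophages. Ptprc, which encodes the leukocyte antigen CD45, had 1.10, 1.05, 7.67 and 1.43 TPM in praliciguat libraries, against 1.37, 1.29, 3.35 and 1.36 TPM in placebo libraries. Outside replicate 3 of each diet, CD45 thus lay within 1.05 to 1.43 TPM, with no separation between the diets. The integrin chains Itgam and Itgb2, which pair into complement receptor 3, reached 8.46 and 28.3 TPM in praliciguat replicate 3. Itgb2 had 3.07, 2.06 and 5.76 TPM in the other praliciguat libraries, against 6.66, 2.28, 8.47 and 3.6 TPM in placebo libraries. The GPI-anchored protein gene Cd52, the tetraspanin gene Cd53, the lysosomal protein gene Laptm5, the Arf exchange factor gene Cyth4 and the adhesion receptor gene Cd84 were also highest in praliciguat replicate 3 and next in placebo replicate 3, with praliciguat replicate 3 at 4.92 to 7.32 times the median of the other 7 libraries. Over the 8 genes the log2 fold changes were 0.56 to 0.93, and -0.54 to -0.19 without praliciguat replicate 3. The pattern receptors Cd14, a co-receptor for bacterial lipopolysaccharide, and Clec7a, a receptor for fungal glucans, had log2 fold changes of 0.50 ± 0.56 and 0.48 ± 0.67 (SE). Their values without that library were -0.38 ± 0.32 and -0.45 ± 0.51.

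**Figure D2:**
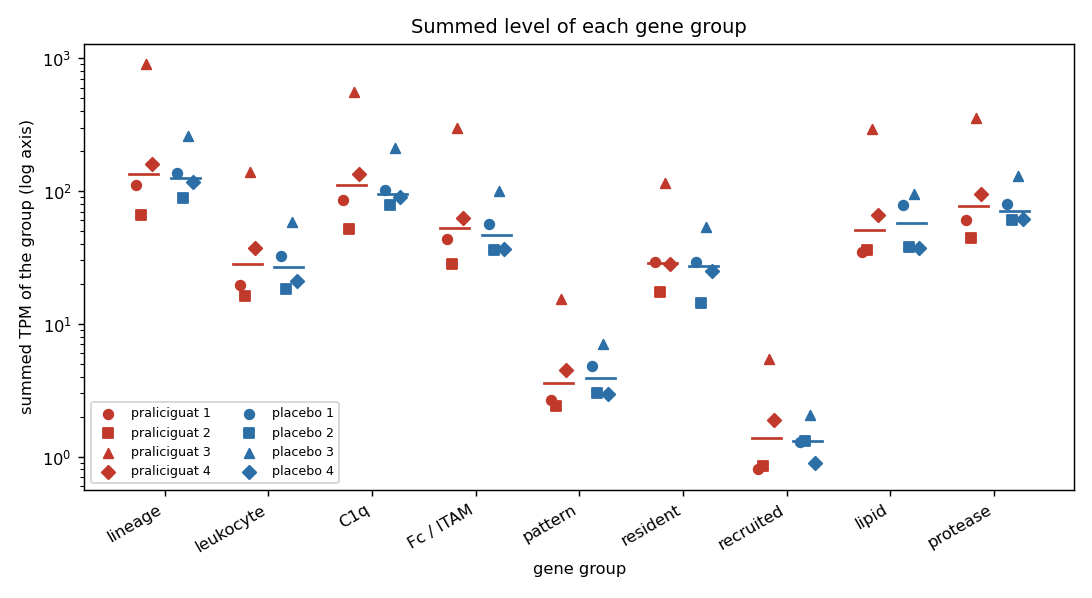
Summed TPM of each gene group (log axis) in each library, praliciguat in red left of placebo in blue, with a line at the group's median. Praliciguat replicate 3 (red triangle) is the highest library in all 9 groups and placebo replicate 3 (blue triangle) the second highest.

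Of the 9 groups, the resident markers stood least above the other libraries in praliciguat replicate 3 (4.07 times their median), and they differed among themselves. The mannose receptor gene Mrc1 had 5.03, 3.07, 24.1 and 6.23 TPM in praliciguat libraries, against 4.50, 3.09, 10.1 and 5.13 TPM in placebo libraries. Cd163, the scavenger receptor for haemoglobin bound to haptoglobin, had 5.33, 2.90, 8.46 and 3.01 TPM in praliciguat libraries, against 4.43, 2.61, 5.84 and 3.45 TPM in placebo libraries. Cd163 in praliciguat replicate 3 was 2.45 times the median of the other 7, against 4.80 for Mrc1, 4.61 for Folr2 and 4.90 for the lectin gene Clec10a. Set against Csf1r in the same library, Mrc1 was nearly constant at 0.618 to 0.804. Cd163 over Csf1r was 0.682, 0.759, 0.243 and 0.340 in praliciguat libraries, against 0.658, 0.525, 0.395 and 0.416 in placebo libraries (0.506 ± 0.253 and 0.499 ± 0.121, SD, n = 4 each). Its lowest value was in praliciguat replicate 3, the library with the most macrophage RNA, and the groups overlapped. Timd4, a phosphatidylserine receptor of long-lived resident macrophages, had 5, 8, 7 and 6 expected counts in praliciguat libraries, against 6, 0, 14 and 15 in placebo libraries. It was not tested, and it was the 1 member below the median of the other libraries in praliciguat replicate 3 (0.79 times). A count of 0 in the library concerned allows up to 3 counts, for counting error only.

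The 2 genes grouped as receptors of recruited monocytes were low in all libraries. They are read singly, since Cx3cr1 is a receptor of patrolling monocytes. Ccr2, the receptor for Ccl2, had 0.73, 0.78, 5.23 and 1.69 TPM in praliciguat libraries, against 1.10, 1.06, 1.64 and 0.78 TPM in placebo libraries. It was the 1 member of which praliciguat replicate 4 was the second highest library. Cx3cr1, the fractalkine receptor of patrolling monocytes, had 4, 4, 16 and 12 expected counts in praliciguat libraries, against 8, 16, 24 and 6 in placebo libraries. Cx3cr1 was the only tested member with a fold change below 0, at -0.67 ± 0.53 (SE) on the log2 scale. Without praliciguat replicate 3 it was -0.96 ± 0.58, and Ccr2 was at 0.88 ± 0.59 with all libraries and -0.035 ± 0.35 without that library. Ccr2 over Mrc1, recruited against resident, was 0.145, 0.254, 0.217 and 0.271 in praliciguat libraries, against 0.244, 0.343, 0.162 and 0.152 in placebo libraries. These ratios averaged 0.222 ± 0.056 in praliciguat libraries and 0.225 ± 0.0886 in placebo libraries (SD, n = 4 each) and overlapped.

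The lipid-handling markers differed among themselves. Trem2, a lipid-sensing receptor that signals through Tyrobp, had 1.51, 0.93, 22.7 and 2.64 TPM in praliciguat libraries, against 5.49, 1.03, 4.82 and 1.53 TPM in placebo libraries. Gpnmb, a transmembrane glycoprotein of macrophages and other cells, had 4.29, 3.41, 66.5 and 5.56 TPM in praliciguat libraries, against 10.9, 2.16, 13.9 and 4.99 TPM in placebo libraries. Spp1, which encodes the secreted matrix protein osteopontin, had 3.01, 4.20, 36.1 and 1.62 TPM in praliciguat libraries, against 7.20, 3.26, 5.64 and 3.64 TPM in placebo libraries. These genes were high in praliciguat replicate 3 and next in placebo replicates 1 and 3, and the groups overlapped. Lgals3, which encodes the lectin galectin-3, was more evenly spread, with 26.1, 27.2, 168 and 56.2 TPM in praliciguat libraries, against 54.2, 31.1, 69.7 and 26.8 TPM in placebo libraries. In praliciguat replicate 3 it stood at 5.41 times the median of the other 7 libraries, against 14.85 for Trem2, 13.3 for Gpnmb and 9.92 for Spp1.

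Set against the resident markers, the 4 lipid-handling genes together gave ratios of 1.19, 2.07, 2.55 and 2.34 in praliciguat libraries, against 2.66, 2.63, 1.76 and 1.47 in placebo libraries. The means were 2.04 ± 0.597 in praliciguat libraries and 2.13 ± 0.605 in placebo libraries (SD, n = 4 each), a difference smaller than the spread. Most of that sum is Lgals3, so the ratio was also taken over Trem2, Gpnmb and Spp1 alone, a choice made after values were seen and given without a test. It was 0.301, 0.494, 1.09 and 0.347 in praliciguat libraries, against 0.805, 0.452, 0.457 and 0.405 in placebo libraries. Praliciguat replicate 3 and placebo replicate 1 were the high ones. Trem2 over Csf1r was 0.193, 0.243, 0.651 and 0.298 in praliciguat libraries, against 0.816, 0.207, 0.326 and 0.184 in placebo libraries. Placebo replicate 1 therefore had the highest Trem2 per Csf1r although its summed level of the 37 genes, 518 TPM, was below that of praliciguat replicate 4, 588 TPM.

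**Figure D3:**
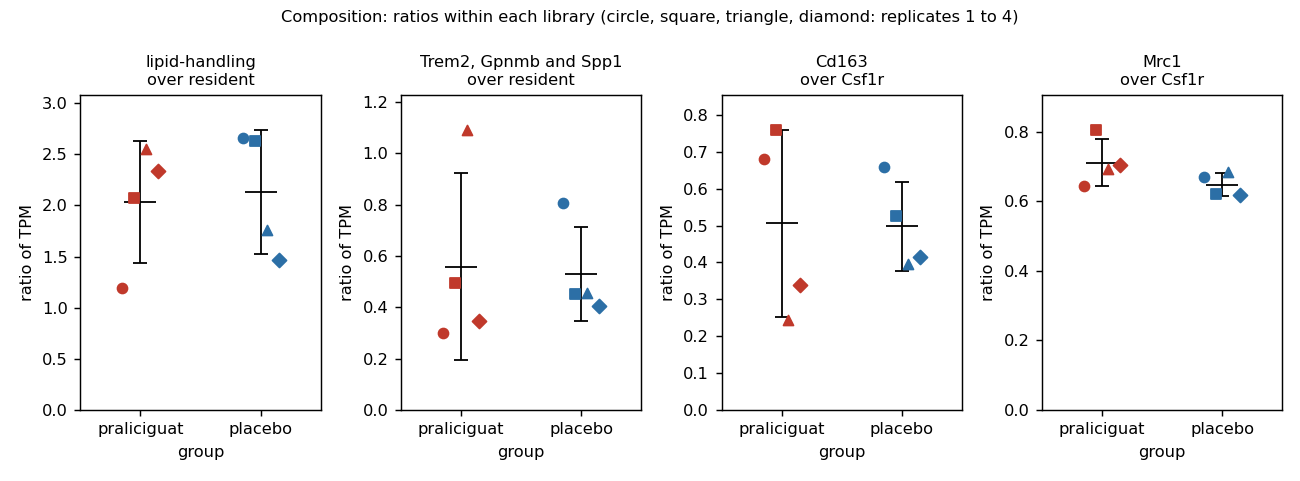
Ratios of TPM within each library, praliciguat in red left of placebo in blue, with the mean and SD of 4 libraries in black. Mrc1 over Csf1r stays within 0.618 to 0.804, while Trem2, Gpnmb and Spp1 over resident markers runs from 0.301 to 1.09 and the groups overlap in every panel.

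The lysosomal proteases cut proteins for antigen presentation and degradation. Cathepsin S, from Ctss, had 24.3, 13.2, 215 and 35.2 TPM in praliciguat libraries, against 36.5, 15.8, 59.9 and 21.2 TPM in placebo libraries. Legumain, from Lgmn, had 35.6, 31.2, 138 and 59.5 TPM in praliciguat libraries, against 43.0, 44.9, 70.0 and 39.9 TPM in placebo libraries. Lgmn stood out less in praliciguat replicate 3, at 3.21 times the median of the other 7 against 8.82 for Ctss. The log2 fold changes were 1.10 ± 0.82 for Ctss and 0.43 ± 0.42 for Lgmn (SE), and -0.38 ± 0.49 and -0.16 ± 0.24 without that library.

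Of the 37 genes, 35 passed the filter on low counts and were tested with edgeR's quasi-likelihood test, adjusted by Benjamini-Hochberg over 13569 genes at 0.05. No member was called, and no gene of any kind was called (0% of all tested). Before adjustment 0 members had a p under 0.05, against 778 of all tested genes (5.73%). Every tested member had an adjusted p of 0.984. DESeq2 called 130 genes (0.958%) and 0 members, with an adjusted p not available for 5 members. No tested member had groups that did not overlap, against 3.86% of all tested genes. Of the 35 members 34 had a fold change above 0, against 55.2% of all tested genes, and their median log2 fold change was 0.77 against 0.02 over all genes.

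That direction was set by 1 library. Without praliciguat replicate 3, 35 of 35 tested members had a fold change below 0, against 49% of all genes tested in that fit, and the median was -0.36 against 0.005 over all genes. No member was called (0% of 13651 genes), 0 members had a p under 0.05 before adjustment, against 9.25% of all genes, and the lowest adjusted p of a member was 0.647 by edgeR. The fit without praliciguat replicate 3 kept placebo replicate 3, which with all libraries was second highest in 30 of the 35 tested members. No fit left out replicate 3 of both diets. Apart from those libraries, the summed level was 387, 262 and 588 TPM with praliciguat, against 518, 338 and 391 TPM with placebo, with overlap. Leaving out any single library other than praliciguat replicate 3 kept the median between 0.64 (without placebo replicate 2) and 1.16 (without placebo replicate 3). Earlier results of these data single out praliciguat replicates 3 and 4, so both were also left out together. This removed every praliciguat library of the upper run of title numbers, described below, while placebo libraries of both runs stayed. Diet and run are therefore partly confounded in that fit. The median was then -0.69, Cd163 alone of 36 tested members lay above 0 (0.11), and no member was called, against 85 of all genes (0.615%). Before adjustment, 3 of 36 members had a p under 0.05 in that fit by edgeR, against 14.5% of all genes. They were Cyth4 (-0.80), Cx3cr1 (-1.62) and Lgmn (-0.47), in log2 fold change. The lowest adjusted p of a member in that fit was 0.267 by edgeR.

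**Figure D4:**
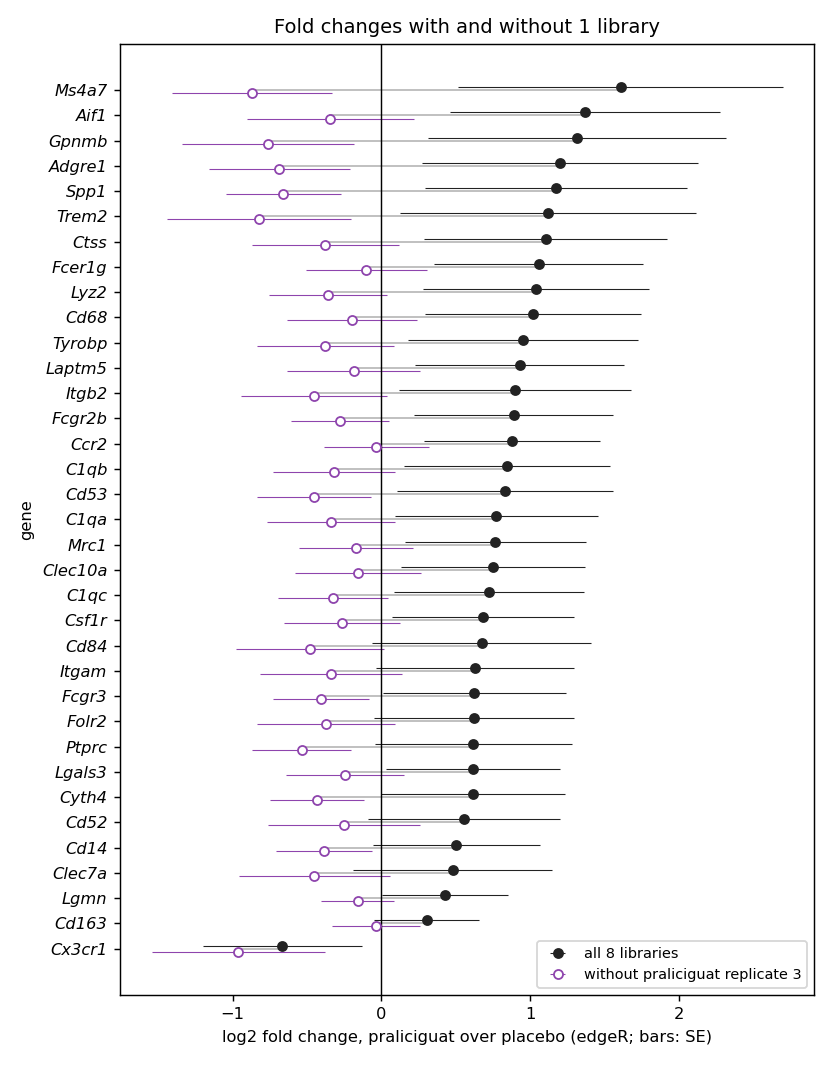
Log2 fold change, praliciguat over placebo, of the 35 tested members by edgeR with all 8 libraries (filled) and without praliciguat replicate 3 (open), with bars of 1 SE. With all libraries 34 of 35 lie above 0, and without that library 35 of 35 lie below 0.

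By library, praliciguat replicate 3 was the highest in 34 of the 35 tested members (97.1%), against 22.2% of all tested genes. It was more than 2 times the next highest library in 30 of the 35 (85.7%), against 2.14% of all tested genes. Placebo replicate 3 was second in 30 of the 35 (85.7%), against 17.0% of all tested genes. At the low end, praliciguat replicate 2 was the lowest library for 22 of the 35 (62.9%), against 15.1% of all tested genes. The order of libraries was therefore shared by most members, while the diets overlapped. Title numbers of the libraries split into 2 runs, each with 2 praliciguat and 2 placebo libraries; their meaning is not given. Replicate 3 of both diets belongs to the upper run. Within the lower run the summed level averaged 325 TPM in praliciguat libraries and 428 TPM in placebo libraries, and 32 of 37 genes were lower with praliciguat. Within the upper run the averages were 1631 TPM in praliciguat libraries and 654 TPM in placebo libraries, and 35 of 37 genes were higher with praliciguat. The libraries behind these averages held 2673 and 588 TPM with praliciguat, against 917 and 391 TPM with placebo. The share of all tested genes in either direction was not taken by run. With the run as a block in edgeR the median log2 fold change was 0.50, 0 members were called and 3 of all genes were called.

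Markers of other cells moved with praliciguat replicate 3 as well. The 5 fibroblast markers, led by Dcn, summed to 538, 339, 2233 and 763 TPM in praliciguat libraries, against 822, 675, 1162 and 696 TPM in placebo libraries. The 5 adipocyte markers, led by Adipoq, summed to 633, 318, 1362 and 982 TPM in praliciguat libraries, against 232, 281, 826 and 208 TPM in placebo libraries. Praliciguat replicate 3 had the highest sum of all for both lists, as it had for the macrophage genes. All 5 fibroblast markers were highest there, but only 3 of the 5 adipocyte markers were. The adipocyte markers Cidec and Lep were highest in praliciguat replicate 4. The 7 dendritic cell markers summed to 19.1 to 139 TPM in praliciguat libraries, against 28.4 to 73.3 TPM in placebo libraries; 6 of the 7 were highest in praliciguat replicate 3, and the leading gene, H2-Ab1, is also expressed by macrophages. Xcr1, Clec9a and Ccr7 were at 0 in at least 1 library. The 8 T cell markers, led by Cd2, summed to 0.80 to 7.68 TPM in praliciguat libraries, against 1.12 to 5.3 TPM in placebo libraries, with 7 of 8 highest in praliciguat replicate 3; Cd3e, Cd3g and Cd8a were at 0 in at least 1 library. The 5 B cell markers, led by Cd79b, reached 3.44 TPM in praliciguat replicate 3 and lay at 0.49 to 1.32 TPM in the other 7 libraries, with Ms4a1 and Pax5 at 0 in at least 1 library. The 8 neutrophil markers, led by S100a8, summed to 4.80 to 44.9 TPM in praliciguat libraries, against 6.13 to 31.4 TPM in placebo libraries, with Ly6g, Mpo and Ngp at 0 in at least 1 library. The part of these cells in the macrophage levels was not tested.

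For 2 further immune lists placebo replicate 3 was the highest library. The 5 NK cell markers, led by Gzma, stood at 2.5 TPM in praliciguat replicate 3, 3.12 times the median of the other 7 libraries, and at 3.79 TPM in placebo replicate 3, with Ncr1, Klrb1c, Prf1 and Klrd1 at 0 in at least 1 library. The 6 mast cell markers, led by Mcpt4, stood at 47.9 TPM in praliciguat replicate 3, 1.68 times the median of the other 7 libraries, and at 48.8 TPM in placebo replicate 3, with 4 of the 6 genes highest in praliciguat replicate 3 and Ms4a2 at 0 in at least 1 library. In praliciguat replicate 3, markers of muscle fibres (Acta1 leading) stood at 0.929 times the median of the other 7 libraries, endothelium (Cdh5 leading) at 0.869, satellite cells (Cdh15 leading) at 0.770 and red blood cells (Hbb-bs leading) at 1.13. With all libraries, edgeR called 0 of the 44 tested markers of 13 lists of other cell types, and DESeq2 called 0. Before adjustment edgeR gave 6 of the 44 a p under 0.05, against 5.73% of all tested genes. Without praliciguat replicates 3 and 4, edgeR called 1 of 46 tested markers, against 0.615% of all genes. It was the mast cell marker Kit, lower with praliciguat. Kit had 0.70 and 0.64 TPM in praliciguat replicates 1 and 2, against 2.54, 2.19, 2.70 and 1.57 TPM in placebo libraries. Praliciguat replicates 3 and 4, left out of that fit, were higher than replicates 1 and 2. Replicate 3 had 1.64 TPM, above placebo replicate 4, and replicate 4 lay just below placebo replicate 4. The full groups therefore overlapped for Kit. The mast cell markers Cpa3, Cma1, Mcpt4, Tpsb2 and Ms4a2 overlapped between praliciguat replicates 1 and 2 and the placebo libraries.

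**Figure D5:**
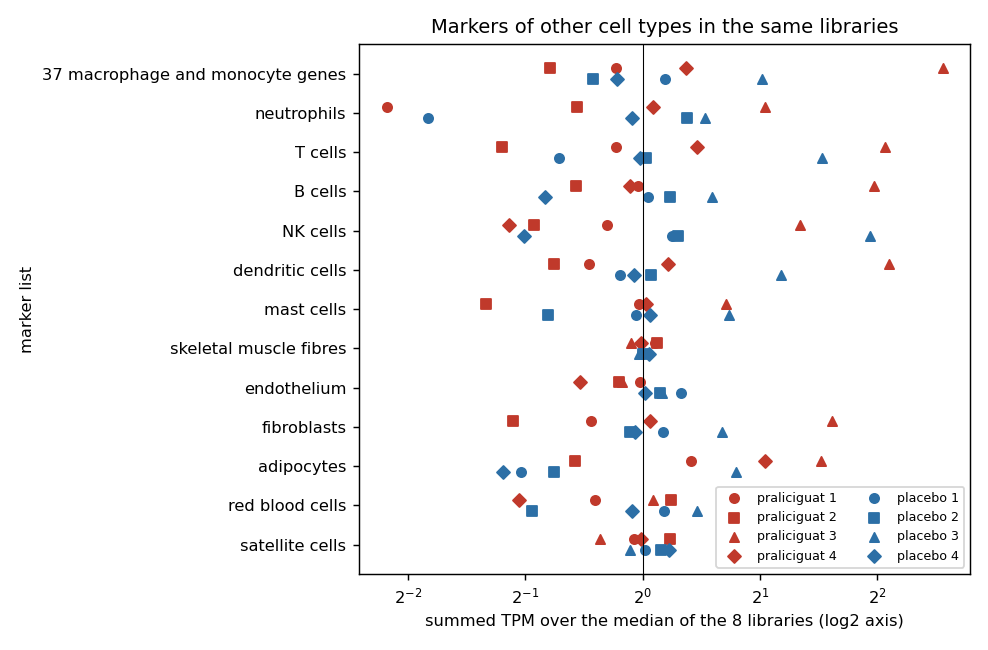
Summed TPM of the 37 genes and of marker lists of other cell types, each over its median of the 8 libraries (log2 axis), praliciguat in red above placebo in blue. The red triangle, praliciguat replicate 3, is far to the right for macrophage, T, B, dendritic, fibroblast and adipocyte lists and near 1 for muscle fibres and endothelium.

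Related macrophage pathways were read from 6 lists of 75 genes that are not among the 37. Of the 65 tested, edgeR called 0 and DESeq2 called 0. Before adjustment edgeR gave 2 of the 65 a p under 0.05, against 5.73% of all tested genes. For the counts above and below 0 that follow, 55.2% of all tested genes lay above 0 with all libraries. Without praliciguat replicate 3, 49% of all genes lay below 0. Of 11 other resident macrophage genes 7 lay above 0 and 4 below, and without praliciguat replicate 3, 2 lay above and 9 below. Stab1, a scavenger receptor, was picked out after its values were seen, with 5.68, 5.19, 14.01 and 5.53 TPM in praliciguat libraries, against 9.75, 8.67, 10.7 and 9.07 TPM in placebo libraries. Praliciguat replicate 3 was above all placebo libraries and the other praliciguat libraries were below them, so the full groups overlapped. The share of all genes that separate once praliciguat replicate 3 is set aside was not taken. Stab1 is also expressed by some endothelial cells. The 5 endothelial markers summed to 214, 189, 192 and 150 TPM in praliciguat libraries, against 272, 240, 244 and 220 TPM in placebo libraries. These sums did not overlap, while 3.86% of all tested genes had groups without overlap. Taken singly, Cdh5, Kdr and Tek overlapped, and with all libraries edgeR called 0 of the 5 markers. The part of endothelial cells in the Stab1 level was not tested. The Stab1 log2 fold change by edgeR was -0.31 ± 0.28 with all libraries (SE, adjusted p = 0.984). By edgeR it was -0.73 ± 0.09 without praliciguat replicate 3 (adjusted p = 0.0538). Without praliciguat replicates 3 and 4 it was -0.72 ± 0.11 (adjusted p = 0.0243 by edgeR). In that last fit Stab1 was the 1 gene called of 68 tested in the 6 lists, against 0.615% of all genes. The praliciguat libraries kept there are all of the lower run. By the rule for naming, the sialic acid receptor gene Siglec1 had a log2 fold change of 1.25 ± 0.82 with all libraries and -0.17 ± 0.48 without praliciguat replicate 3 (SE). The carbonyl reductase gene Cbr2 had -0.46 ± 0.32 with all libraries, -0.81 ± 0.24 without that library (adjusted p = 0.305) and -1.12 ± 0.21 without praliciguat replicates 3 and 4 (adjusted p = 0.0543), by edgeR.

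Of 12 other recruited and inflammatory genes 6 were tested, 3 above 0 and 3 below, and without praliciguat replicate 3, 1 lay above and 5 below. Plac8 had a log2 fold change of 1.37 ± 0.67 and Nos2, the inducible nitric oxide synthase, of -0.35 ± 0.21 (SE). Without that library the values were 0.50 ± 0.52 for Plac8 and -0.27 ± 0.22 for Nos2. Of 17 other lipid-associated genes 15 lay above 0, and without praliciguat replicate 3, 9 did. Nr1h3, the sterol-sensing liver X receptor alpha, had 20.8, 17.6, 23.3 and 21.4 TPM in praliciguat libraries, against 16.9, 16.3, 19.4 and 16.9 TPM in placebo libraries. The praliciguat values were mostly the higher ones, with replicate 2 inside the placebo range. Its log2 fold change was 0.29 ± 0.09 (SE, adjusted p = 0.540 by edgeR) and 0.27 ± 0.10 without praliciguat replicate 3. Abca1, the cholesterol exporter that it controls, had 0.60 ± 0.35 with all libraries and 0.19 ± 0.24 without that library.

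Of the growth factors, attractants and their receptors, 8 of 11 tested lay above 0. Without praliciguat replicate 3, 2 did, and without replicates 3 and 4, 0 did. Cx3cl1, the ligand of Cx3cr1, had 1.38, 1.67, 3.26 and 2.53 TPM in praliciguat libraries, against 2.99, 6.14, 5.08 and 2.45 TPM in placebo libraries. Ligand and receptor both had a mean below placebo, and neither was called. The Cx3cl1 log2 fold change was -0.90 ± 0.35 (SE, adjusted p = 0.762 by edgeR) and -1.10 ± 0.36 without praliciguat replicate 3. C3ar1, the receptor for the complement fragment C3a, had 1.47 ± 0.78 with all libraries and 0.04 ± 0.38 without that library. Ccl8, a monocyte attractant picked out after its values were seen, had 21.4, 7.89, 390 and 12.6 TPM in praliciguat libraries, against 20.4, 5.56, 67.9 and 10.1 TPM in placebo libraries. It stood at 31.0 times the median of the other 7 in praliciguat replicate 3, beyond any of the 37 genes.

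Of 8 myeloid transcription factor genes 6 lay above 0, and without praliciguat replicate 3, 5 did. Cebpa, which adipocytes also express, had a log2 fold change of 1.11 ± 0.58 with all libraries and 0.58 ± 0.56 without that library (SE). Of the ITAM signalling and complement partners, 11 of 12 tested lay above 0. Ptpn6, the phosphatase SHP-1, had 1.14 ± 0.79, and C3, the central complement protein, had 0.70 ± 0.40 (SE). Without praliciguat replicate 3, 11 of those 12 lay below 0, and the values were -0.34 ± 0.39 for Ptpn6 and 0.26 ± 0.32 for C3.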

How the data were processed

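Muscle RNA was isolated with Tri Reagent and sequenced from KAPA stranded mRNA libraries, per the labels' protocols. The submitters' processing notes list RSEM 1.2.28, STAR 2.5.3a, Trimmomatic, FastQC and the build mm10; sources used here do not give the strand setting. The authors deposited RSEM's expected counts and TPM per gene, per the file headers. Gene and effective lengths are also deposited and did not enter a test.

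Expected counts were rounded to integers. The test was edgeR's (version 4.0.16, R 4.3.3) robust quasi-likelihood F test after filterByExpr and TMM scaling, with diet as the only term, Benjamini-Hochberg adjustment and a threshold of 0.05. A fold change is praliciguat over placebo. DESeq2 1.42.0 and limma 3.58.1 gave alternatives. The test was checked on simulated counts. Replicates were numbered in accession order. No 2 libraries were alike within sampling noise (chi-square per degree of freedom 25.7 to 153 within groups).

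The 37 genes and all lists were chosen with earlier results of these data known, so no test was made over a list. All 37 were named; of each other macrophage list the 2 genes of lowest p were named, as none passed; of each other cell type the marker of highest mean TPM and those at 0. Other genes were chosen after their values were seen. Some items that this rule would name are not reported here.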

Additional observations from a re-analysis of the deposited data

Results flagged for a closer look

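In each group of 4 libraries, the gap of the highest or lowest library to its neighbour was divided by the range, and groups above Dixon's 95% critical value for 4 samples were marked. Of 134 such groups of levels, sums and ratios examined 44 passed. Chance marks about 5% of groups only where values are normally distributed, and TPM entered without a log. The rate over all genes was not taken. The genes vary together, so the marks are not independent. In 36 of the 44 the library apart was praliciguat replicate 3, as the highest of its group. The gap, as a share of the range among praliciguat libraries, was as follows. Of the lineage genes, it passed for Adgre1 (0.964), Cd68 (0.855), Csf1r (0.838), Aif1 (0.890), Ms4a7 (0.952) and Lyz2 (0.890). Of the leukocyte genes, it passed for Ptprc (0.943), Itgb2 (0.859), Cd53 (0.873), Laptm5 (0.864) and Cyth4 (0.839). Of the C1q genes, it passed for C1qb (0.846) and C1qc (0.83). Of the Fc receptors and adaptors, it passed for Fcgr1 (0.914), Fcgr2b (0.876), Fcgr3 (0.871), Fcer1g (0.864) and Tyrobp (0.878). Of the pattern receptors, it passed for Cd14 (0.851). Of the resident markers, it passed for Mrc1 (0.850), Folr2 (0.833) and Clec10a (0.858). Of the lipid-handling markers, it passed for Trem2 (0.922), Gpnmb (0.966) and Spp1 (0.925). Of the lysosomal proteases, it passed for Ctss (0.891). For sums of TPM it was 0.865 for all 37 members, 0.889 for lineage, 0.831 for leukocyte surface and signalling, 0.834 for complement C1q, 0.872 for Fc receptors and ITAM adaptors, 0.840 for pattern receptors, 0.877 for resident markers, 0.880 for lipid-handling markers, 0.837 for lysosomal proteases and 0.989 for Trem2, Gpnmb and Spp1. Among placebo libraries, replicate 3 stood apart as the highest for Adgre1 (0.860), Ptprc (0.961), Cyth4 (0.844), C1qb (0.848), C1qc (0.837) and Lgmn (0.836), and for the C1q sum (0.832). Placebo replicate 1 stood apart in the ratio of Trem2, Gpnmb and Spp1 to the resident markers (0.869).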

How the results depend on the processing

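No paired analysis was possible because the labels give the groups no shared replicate numbers. No member was called in any of the 17 alternative fits, and the 0 genes called in all became 130 with DESeq2, 3 with the title-number run as a block, 85 without praliciguat replicates 3 and 4, 11 at an adjusted p under 0.1, and 0 to 5 with 1 library left out (5 without placebo replicate 3). The members' median log2 fold change was -0.36 to 1.16 with 1 library left out and -0.69 without praliciguat replicates 3 and 4; it was 0.40 with limma-voom, 0.29 with limma on log2(TPM + 1) and 0.50 with the block. The ratio of the summed TPM, praliciguat over placebo, was 1.81 and ran from 0.763 without praliciguat replicate 3 to 2.35 without placebo replicate 3. The lipid-handling to resident ratio, praliciguat over placebo, was 0.956 and ran from 0.866 to 1.09. Without praliciguat replicate 3, 34 of 35 members changed sign, and without replicates 3 and 4, 33 did; fewer libraries enter those fits, and what sets that library apart was not tested. No other alternative turned the sign of a member. The log2 fold changes below are the lowest to the highest with 1 library left out, then the value without praliciguat replicates 3 and 4. For the lineage genes they were Adgre1 -0.69 to 1.84 and -0.87, Cd68 -0.20 to 1.39 and -0.58, Csf1r -0.26 to 1.03 and -0.48, Aif1 -0.34 to 1.77 and -0.87, Ms4a7 -0.87 to 2.01 and -1.29, Lyz2 -0.36 to 1.40 and -0.67. For the leukocyte genes they were Ptprc -0.54 to 1.03 and -0.67, Itgam -0.34 to 0.98 and -0.76, Itgb2 -0.45 to 1.23 and -0.93, Cd52 -0.25 to 1.05 and -0.71, Cd53 -0.45 to 1.2 and -0.83, Laptm5 -0.19 to 1.46 and -0.52, Cyth4 -0.43 to 0.90 and -0.80, Cd84 -0.48 to 1.10 and -1.01. For the C1q genes they were C1qa -0.34 to 1.16 and -0.73, C1qb -0.32 to 1.24 and -0.69, C1qc -0.32 to 1.06 and -0.68. For the Fc receptors and adaptors they were Fcgr2b -0.28 to 1.19 and -0.55, Fcgr3 -0.40 to 0.94 and -0.64, Fcer1g -0.10 to 1.43 and -0.34, Tyrobp -0.38 to 1.41 and -0.79. For the pattern receptors they were Cd14 -0.38 to 0.75 and -0.66, Clec7a -0.45 to 0.91 and -0.90. For the resident markers they were Mrc1 -0.17 to 1.16 and -0.39, Cd163 -0.037 to 0.50 and 0.11, Folr2 -0.37 to 1.0 and -0.70, Clec10a -0.15 to 1.19 and -0.14. For the recruited monocyte receptors they were Ccr2 -0.035 to 1.15 and -0.51, and Cx3cr1, which kept its sign, -0.96 to -0.29 and -1.62. For the lipid-handling markers they were Trem2 -0.82 to 1.51 and -1.27, Gpnmb -0.76 to 1.69 and -0.94, Spp1 -0.66 to 1.54 and -0.35, Lgals3 -0.24 to 0.88 and -0.67. For the lysosomal proteases they were Ctss -0.38 to 1.51 and -0.72, Lgmn -0.16 to 0.65 and -0.47. The SE of the members (0.35 to 1.09 on the log2 scale) limits what could be detected. Fcgr1 and Timd4 reached the count minimum in too few libraries for a test.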
